A study of Mus musculus with 200 samples.

Results

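The 6 genes described here encode the Fos and Jun subunits of the transcription factor AP-1: Fos, Fosb and Fosl2 of the Fos family, and Jun, Junb and Jund of the Jun family. They were taken by gene symbol, as the 6 rows of the count table carrying these names out of 56941 genes listed. The set was chosen with earlier results of these data known. AP-1 is a pair of basic leucine zipper proteins that binds DNA as a Jun homodimer, a Jun dimer of mixed members or a Fos-Jun heterodimer, whereas Fos proteins do not pair with each other. In neurons Fos, Fosb and Junb are immediate early genes, whose transcripts appear within minutes of calcium entry or growth factor signalling and decay quickly, which has made Fos RNA a widely used readout of recent neuronal activity. Jun is also known for its rise after axonal injury, Fosl2 responds more slowly, and Jund is held at a steady level in many resting cells.

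RNA was sequenced from the brains of 200 mice, 67 after sham surgery and the others after closed head injury (CHI), an impact to the skull without opening it. Sham surgery was, per the study's methods, anaesthesia with a scalp incision. The mice belonged to 4 strains, C57BL/6J with 61 mice, IL-1R1 gKO with 55, IL-1R1 eRestore with 50 and IL-1R1 nRestore with 34, and tissue was taken 9, 24 or 72 h after surgery. IL-1R1 is the type 1 receptor of the cytokine interleukin-1, and the alleles behind gKO, eRestore and nRestore are not spelled out in the sources used here, so the strains are called by their labels. Both sexes were used, with 102 females, and ages ran from 3.3 to 7.67 months. C57BL/6J had 15 CHI and 6 sham mice at 9 h, and 14 and 6 at each of 24 and 72 h. IL-1R1 gKO had 13, 12 and 12 CHI mice in order of time, with 6 sham mice at each time. IL-1R1 eRestore had 12, 9 and 12 CHI mice with 6, 5 and 6 sham mice, and IL-1R1 nRestore had 6, 8 and 6 CHI mice with 4, 5 and 5 sham mice. All IL-1R1 nRestore mice at 72 h were males.

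Library totals ran from 14857985 to 57355676 estimated counts with a median of 20258936, and all 6 genes passed the filter on low counts in every comparison. The tissue carried neuronal markers as labelled, 5 of which summed to at least 106900 normalized counts in every mouse. Blood leukocyte markers were near 0, with medians of 1.27 to 4.80 over the times and surgeries and none tested at 9 h, but 1 IL-1R1 gKO CHI mouse at 9 h stood far above the highest sum at 24 and 72 h, 19.4. The 9 h mice came from 3 experiments (labelled eIL-1-76, eIL-1-80 and TM-2-33) that held no later mice, and per the study's methods, which describe the C57BL/6J mice only, surgery was done in the morning, so that time point, experiment and time of day cannot be told apart. The 9 h tissue also held less signal of striatal neurons: the summed normalized counts of 4 markers had medians of 3267 in sham and 2353 in CHI mice at 9 h, against 9403 and 9510 at 24 h and 10040 and 10480 at 72 h. Choroid plexus markers were uneven between mice, with 24 of 200 above 10 times the median of all mice. Il1r1 had a median of 2.00 TPM (transcripts per length, scaled to a fixed library sum) in C57BL/6J and 3.94 in IL-1R1 gKO, so the gene total was not lower in IL-1R1 gKO and does not check that label.

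The 6 genes lie on 5 chromosomes (GRCm39). Fos (ENSMUSG00000021250) spans chr12:85520658-85524047 on the plus strand, Fosb chr7:19036621-19043976 on the minus strand and Fosl2 chr5:32292707-32315186 on the plus strand, each with 4 exons in its canonical transcript. The 3 Jun genes have 1 exon each: Jun spans chr4:94937271-94940459 (minus), Junb chr8:85701113-85705359 (minus) and Jund chr8:71151599-71153265 (plus). The annotation places Gm72529 opposite Fosl2, Junos opposite Jun, Prdx2 and Gm65321 opposite Junb and Gm11175 opposite Jund, and since the strandedness of the libraries is not given in the sources used here, reads from such partners could be counted with them. Fos and Fosb have no overlapping gene.

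The 250 bases upstream of the canonical transcript of 4 of the genes are printed below (5′ to 3′ on the gene's strand, GRCm39) to set Fos, Fosl2 and Junb, whose CHI-to-sham differences at 9 h were the largest of the 6, beside Jund, which showed no called difference. They cover chr12:85520408-85520657 (plus) for Fos, chr5:32292457-32292706 (plus) for Fosl2, chr8:85705348-85705597 (minus) for Junb and chr8:71151349-71151598 (plus) for Jund. Capitals mark the motifs that were searched on both strands and found.
Fos: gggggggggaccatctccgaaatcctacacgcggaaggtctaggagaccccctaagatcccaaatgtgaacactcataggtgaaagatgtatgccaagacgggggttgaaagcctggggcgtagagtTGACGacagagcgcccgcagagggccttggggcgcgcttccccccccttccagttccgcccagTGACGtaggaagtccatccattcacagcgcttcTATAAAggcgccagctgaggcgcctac
Fosl2: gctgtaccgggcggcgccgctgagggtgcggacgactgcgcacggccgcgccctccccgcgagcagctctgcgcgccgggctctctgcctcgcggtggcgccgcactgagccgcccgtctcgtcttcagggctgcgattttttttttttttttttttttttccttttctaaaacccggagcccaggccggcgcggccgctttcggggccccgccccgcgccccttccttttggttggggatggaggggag
Junb: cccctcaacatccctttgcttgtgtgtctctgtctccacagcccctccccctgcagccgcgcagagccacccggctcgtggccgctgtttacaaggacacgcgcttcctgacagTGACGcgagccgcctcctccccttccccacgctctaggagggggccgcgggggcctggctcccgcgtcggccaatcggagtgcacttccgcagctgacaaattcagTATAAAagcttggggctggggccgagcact
Jund: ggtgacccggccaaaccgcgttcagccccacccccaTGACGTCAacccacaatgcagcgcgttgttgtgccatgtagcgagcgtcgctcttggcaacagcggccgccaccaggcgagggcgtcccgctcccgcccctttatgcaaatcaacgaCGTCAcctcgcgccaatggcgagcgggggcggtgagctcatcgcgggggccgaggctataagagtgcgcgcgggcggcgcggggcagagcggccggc
The motifs were TGACG, which is the core of the cAMP response element (CRE), the whole CRE TGACGTCA, its form with any central base TGACNTCA, the AP-1 site TGANTCA, the TATA box TATAAA, and the CArG box bound by serum response factor. The TGACG core, which lies inside TGACGTCA, was found in the windows of 4 of the 6 genes (Fos, Fosb, Junb and Jund) and in 18.0% of all 21654 promoter windows of this length. TGACGTCA was found in Jund and in 1.69% of all windows, and TGACNTCA, which includes it, in Jun and Jund and in 6.84%. TATAAA was found in Fos and Junb and in 11.9% of all windows. Neither TGANTCA (6.19% of windows) nor the CArG box (1.40%) was found in any of the 6 windows, which says only that these letters are not in them. The Fosl2 window held none of the motifs. The windows held 59.6% to 69.6% G and C, against a median of 53.2% over all windows.

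Per unit of length the Jun family led. Over all 200 mice the median level was 110.9 TPM for Jund, 51.0 for Junb, 28.5 for Fos, 28.4 for Jun, 9.82 for Fosl2 and 7.55 for Fosb. The medians of Fos and Jun, neighbours in this order, lay closer together than mice of 1 group did. In sham mice at 9 h Fos varied more between mice than the other 5 genes in C57BL/6J and in IL-1R1 gKO, with coefficients of variation of 31.5% and 67.5%, against 18.3% and 15.8% for Jund.

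The first question the design puts is how CHI and sham mice differ at each time in each strain. At 9 h in C57BL/6J mice, 5 of the 6 genes were lower after CHI: Fos, Fosb, Fosl2, Jun and Junb passed the edgeR quasi-likelihood test (Benjamini-Hochberg adjusted p under 0.05 over all genes, with sex and age as covariates), and Jund did not. Among all 16967 genes tested in this comparison, 7.00% were called lower. The levels below are normalized counts (TMM scale over all 200 mice), and the fold changes are log2 of CHI over sham with their standard errors (SE). In bulk tissue, fewer cells of a type and less RNA per cell cannot be told apart.

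**Figure D1:**
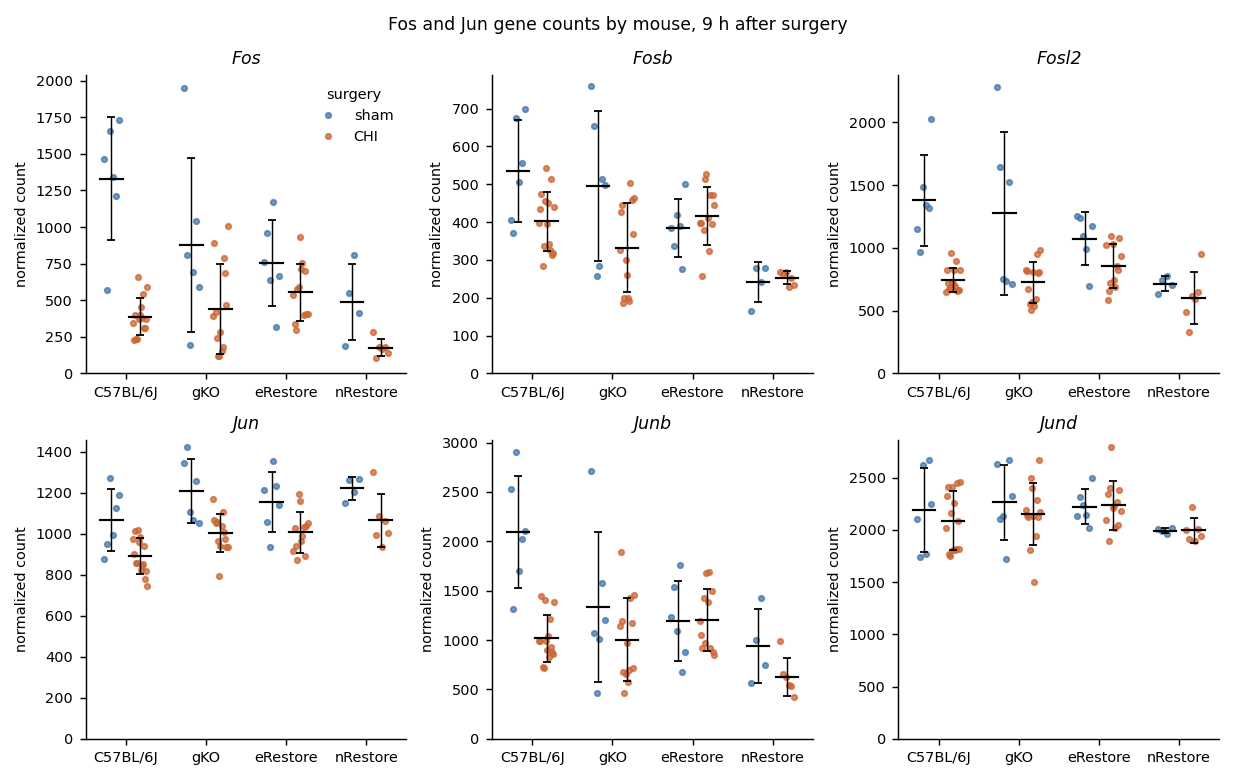
Normalized counts (TMM scale) of the 6 genes in each mouse at 9 h, by strain, for sham and CHI mice, with bars at the mean ± SD. In C57BL/6J mice the 15 CHI points of Fosl2 all lie below the 6 sham points, and 13 of 15 do for Fos, whereas the points of Jund overlap in all 4 strains. The share of all genes that separate in this way was not counted.

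Fos, the founding member of the family and the partner most studied as an activity marker, showed the largest difference. Its normalized count ran from 569 through a median of 1406 to 1734 in the 6 sham mice, and from 226 through 375 to 660.2 in the 15 CHI mice. Thus 13 of 15 CHI mice lay below every sham mouse and the lowest sham mouse overlapped the upper end of the CHI mice. Sham mice averaged 1330.5 ± 419 (SD, n = 6) against 389 ± 128 (SD, n = 15) after CHI, and the fitted difference was −1.79 ± 0.18 (SE, adjusted p = 1.91e-06).

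Fosl2, which encodes the Fos-related antigen Fra-2, did not overlap between the groups. How many of all genes tested did the same was not counted. Its normalized count was 967 to 2024 with a median of 1327 in sham mice and 649 to 960.1 with a median of 713 in CHI mice, so that no CHI mouse reached the lowest sham mouse. The fitted difference was −0.89 ± 0.10 (adjusted p = 1.01e-06), from means of 1381 ± 362 (SD, n = 6) and 745 ± 96.7 (SD, n = 15).

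Fosb, whose splice forms include the long-lived ΔFosB, showed a smaller difference with overlapping groups. Sham mice had normalized counts of 372 to 699 with a median of 531, and CHI mice 284 to 542 with a median of 397. Only 6 of 15 CHI mice lay below every sham mouse, and the fitted difference was −0.42 ± 0.13 (adjusted p = 0.0270).

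In the Jun family, Junb, an immediate early partner of Fos that competes with Jun for the same dimers, differed most between the groups. Its normalized count was 1316 to 2904 with a median of 2062 in sham mice and 717 to 1448 with a median of 986 in CHI mice. Of the 15 CHI mice, 12 lay below every sham mouse, and the fitted difference was −1.06 ± 0.15 (adjusted p = 7.63e-05). Jun, the target of the Jun N-terminal kinases, differed less. It had 879.7 to 1274 normalized counts with a median of 1061 in sham mice, and 744 to 1019.7 with a median of 857 in CHI mice. Its groups overlapped, with 8 of 15 CHI mice below every sham mouse and a fitted difference of −0.27 ± 0.08 (adjusted p = 0.0166). Jund had 1740.0 to 2673 normalized counts in sham and 1748 to 2461 in CHI mice. No CHI mouse lay below every sham mouse, and the difference of −0.08 ± 0.10 did not pass (adjusted p = 0.649).

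C57BL/6J mice at 9 h came from 2 experiments, and the values within each are given as log2 of the ratio of group means. In eIL-1-76 (10 CHI and 4 sham mice) they were −1.76 for Fos, −0.57 for Fosb, −1.01 for Fosl2, −0.39 for Jun, −1.07 for Junb and −0.14 for Jund. In eIL-1-80 (5 CHI and 2 sham mice) Fos (−1.82), Fosl2 (−0.58) and Junb (−0.98) were lower too, while Fosb (−0.01), Jun (0.01) and Jund (0.09) were close to 0. In a fit of that experiment alone 1 of 6, Fosl2, was called. Fos, Fosl2 and Junb stayed called whichever of the 6 sham mice was left out (CHI mice were not left out). Fosb and Jun were no longer called without sham mouse A178 (Fosb −0.37, adjusted p = 0.0750, and Jun −0.22, adjusted p = 0.0587), A193 or A194.

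Choroid plexus markers moved with surgery in these mice, their 3 genes summing to a median of 1797 normalized counts (274 to 72940) in sham and 382 (78.0 to 36100) in CHI mice, although 0 of the 3 passed the test in C57BL/6J. Without the mice high in these markers (12 CHI and 4 sham left), the same 5 genes were called and the differences were −1.56 for Fos, −0.53 for Fosb, −0.88 for Fosl2, −0.37 for Jun and −0.99 for Junb. Striatal markers, none of the 4 called, had medians of 2023 (1349 to 9110) and 1889 (1429 to 4454), and with their score as a covariate the 5 genes were called again (Fos −1.84, Junb −1.09). Microglial markers, 2 of 4 called lower, had medians of 4587 in sham and 3763 in CHI mice. Astrocyte markers, 2 of 4 called higher (Gfap 1.12, Aldh1l1 0.38), had medians of 22550.0 and 25660.0, and of 3 endothelial markers Pecam1 (0.39) was higher and Flt1 (−0.28) lower. The refits were added after seeing the data, and the part of any of these marker lists in the result was not tested.

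In the other 3 strains none of the 6 genes was called at 9 h by edgeR, against 0.199% of genes called in either direction in IL-1R1 gKO, 7.34% in IL-1R1 eRestore and 0.608% in IL-1R1 nRestore. At an unadjusted p under 0.05 the counts were 4, 2 and 1 of 6, against 1784 of 16604, 4316 of 16652 and 2207 of 16788 genes tested. DESeq2 called 1 (Fosl2), 0 and 0 of the 6. Their values are given here as levels and estimates rather than as changes.

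In IL-1R1 gKO mice, Fos ranged from 196.3 to 1950 normalized counts with a median of 749.8 in 6 sham mice and from 116 to 1007 with a median of 395 in 13 CHI mice, a difference of −0.99 ± 0.38 (adjusted p = 0.345). The other estimates in this strain were −0.47 ± 0.13 for Fosb, −0.69 ± 0.17 for Fosl2, −0.25 ± 0.07 for Jun, −0.34 ± 0.25 for Junb and −0.05 for Jund. The 3 experiments of this strain differed in Fos, with a log2 ratio of means of −0.15 in eIL-1-76, −1.28 in eIL-1-80 and −1.29 in TM-2-33. Without sham mouse A196, Fosl2 was called (−0.81, adjusted p = 0.0256).

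In IL-1R1 eRestore mice, Fos ranged from 315 to 1171 with a median of 711 in 6 sham mice and from 296 to 933 with a median of 556 in 12 CHI mice, so that only 1 CHI mouse lay below every sham mouse. The difference was −0.41 ± 0.21 (adjusted p = 0.243), with −0.34 ± 0.13 for Fosl2, −0.19 ± 0.07 for Jun, and 0.12, 0.02 and 0.00 for Fosb, Junb and Jund. Without sham mouse A188, Fosl2 was called (−0.45, adjusted p = 0.0279).

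In IL-1R1 nRestore mice, the 4 sham mice had Fos at 186.2, 415.7, 547.2 and 806.1 normalized counts and the 6 CHI mice at 104 to 282 with a median of 172.3. Here 5 of 6 CHI mice lay below every sham mouse, yet the difference of −1.09 ± 0.38 did not pass (adjusted p = 0.288). The others were 0.04 for Fosb, −0.36 ± 0.32 for Fosl2, −0.19 for Jun, −0.21 for Junb and 0.00 for Jund. All these mice belonged to the experiment TM-2-33, in which Fos was low in both surgery groups over both of its strains, at 178.8 ± 60.8 (SD, n = 12) in CHI and 474 ± 255.5 (SD, n = 6) in sham mice.

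Whether the strains differed in their response was tested directly, as the CHI-minus-sham difference in each IL-1R1 strain minus that in C57BL/6J at each time. None of the 54 member tests passed in edgeR, and the estimates ran from −0.56 to 1.34. An unadjusted p under 0.05 was found for 6, all at 9 h: 1 of 6 with IL-1R1 gKO, 4 of 6 with IL-1R1 eRestore and 1 of 6 with IL-1R1 nRestore. Among all 18741 genes at 9 h it was found for 1199 with IL-1R1 gKO, 1608 with IL-1R1 eRestore and 1042 with IL-1R1 nRestore. The called share of all genes in either direction at 9 h was 0% for IL-1R1 gKO, 0.0107% for IL-1R1 eRestore and 0.00534% for IL-1R1 nRestore. At 24 h these shares were 0.00541%, 0.0108% and 0%, and at 72 h 0%, 0% and 0.00543%. The largest member values were those of IL-1R1 eRestore at 9 h, 1.34 ± 0.46 for Fos (adjusted p = 0.309) and 1.06 ± 0.31 for Junb (adjusted p = 0.193). With only these 2 strains in the fit, both were called, at 1.39 for Fos (adjusted p = 0.0246) and 1.09 for Junb (adjusted p = 0.0271).

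Over the 4 strains together at 9 h (46 CHI and 22 sham mice, strain as a covariate) the same 5 genes were lower after CHI and Jund was not called. Of 18741 genes tested, 11.9% were lower and 12.0% higher. The differences were −1.21 ± 0.18 for Fos (adjusted p = 3.87e-07), −0.26 ± 0.09 for Fosb, −0.62 ± 0.09 for Fosl2, −0.24 ± 0.04 for Jun, −0.55 ± 0.12 for Junb and −0.04 ± 0.04 for Jund. Jun, although its step was small, varied little between mice and was lower on average in all 4 strains. Without C57BL/6J mice 3 of 6 were called, with Fosb at −0.19 (adjusted p = 0.225) and Junb at −0.31 (adjusted p = 0.182) no longer passing. All 3 choroid plexus markers (Ttr −2.77), 2 of 4 striatal, 3 of 4 microglial (P2ry12 −0.62), 1 of 3 meningeal and 1 of 4 cerebellar markers were lower in this fit, 2 of 4 astrocyte markers (Gfap 0.79) and 1 of 5 neuronal markers were higher, and 1 of 3 endothelial markers was lower and 2 higher. None of the markers of oligodendrocytes, dentate granule cells, pituitary or red blood cells was called. The part of these markers in the result was not tested. In refits added after seeing the data, the 5 genes were called both without the mice high in choroid plexus markers (Fos −1.19) and with the striatal score (Fos −1.32).

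**Figure D2:**
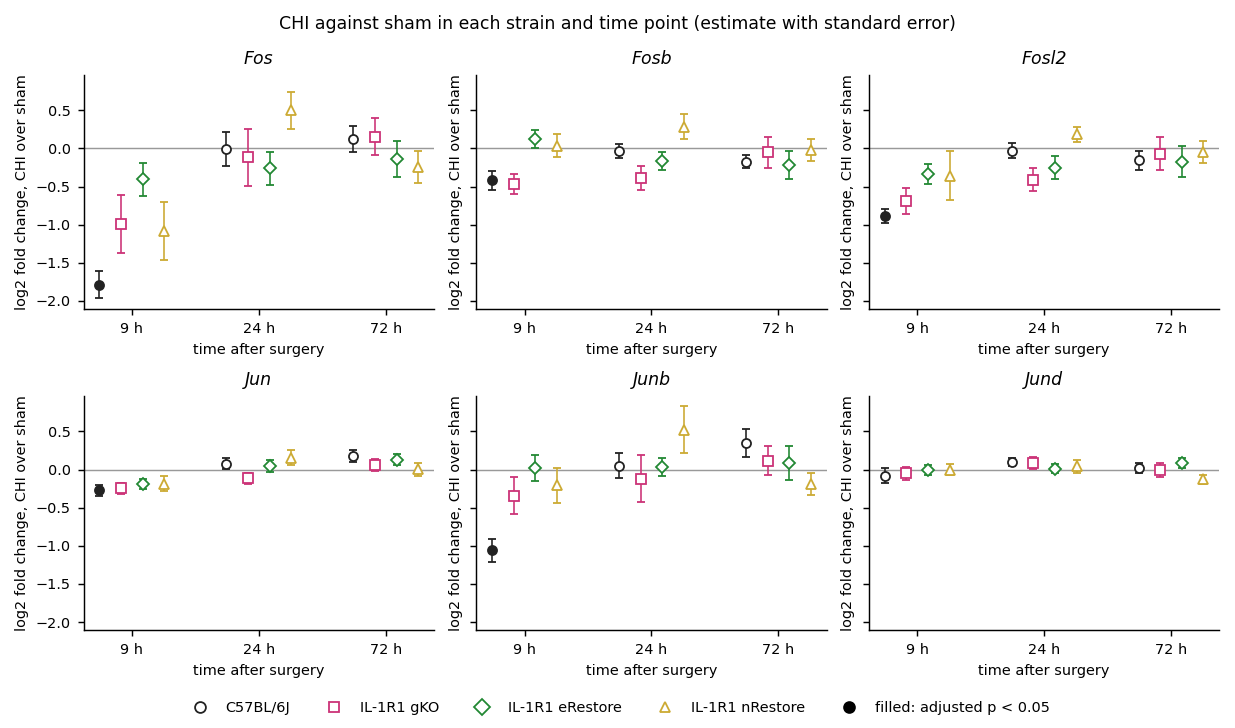
Fitted log2 fold change of CHI over sham (± SE) for each gene at 9, 24 and 72 h (evenly spaced), by strain. Filled points have an adjusted p under 0.05 and occur only in C57BL/6J at 9 h, from −1.79 for Fos to −0.27 for Jun, while the estimates at 24 and 72 h lie between −0.41 and 0.53.

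At 24 and 72 h no difference was called. None of the 48 tests of the 6 genes in the 4 strains passed in edgeR, none passed in DESeq2, and 3 had an unadjusted p under 0.05. Of those 3, 2 were in IL-1R1 gKO at 24 h (1502 of 16953 genes) and 1 in C57BL/6J at 72 h (869 of 16875). The estimates ran from −0.41 (Fosl2 in IL-1R1 gKO at 24 h, adjusted p = 0.392) to 0.53 (Junb in IL-1R1 nRestore at 24 h), with a median SE of 0.14. In the IL-1R1 strains at 24 h, CHI mice of experiment NiL-1-21 had no sham mice of their strain in that experiment. Within NiL-1-24 (4 CHI and 5 sham IL-1R1 nRestore mice) the log2 ratios of means were −0.31 for Junb and −0.20 for Fos. These were opposite in sign to the fitted 0.53 and 0.50. Few genes of any kind were called at these times: 0.404% and 0% in C57BL/6J at 24 and 72 h, 0.00590% and 0% in IL-1R1 gKO, 0% and 0.00605% in IL-1R1 eRestore, and 0% and 0.0121% in IL-1R1 nRestore. Over the 4 strains together 1.48% of genes were called at 24 h and 0.706% at 72 h, and again none of the 6, with estimates between −0.14 and 0.14. As an example of the levels, Fos in C57BL/6J averaged 436 normalized counts in CHI and 499.7 in sham mice at 24 h, and 524 and 479 at 72 h.

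Whether the response itself changed with time was tested within each strain, as the CHI-minus-sham difference at 9 h minus that at a later time. In C57BL/6J mice 4 of 6 genes passed against 24 h, with −1.64 for Fos (adjusted p = 0.000459), −0.86 for Fosl2 (0.000716), −0.98 for Junb (0.0163) and −0.35 for Jun (0.0483), where 2.34% of genes were called lower. The same 4 passed against 72 h, with −2.001 for Fos (adjusted p = 1.84e-05), −0.76 for Fosl2 (0.00278), −1.50 for Junb (0.000112) and −0.46 for Jun (0.00512), where 3.35% were called lower. Fosb (−0.39 and −0.29) and Jund (−0.15 and −0.12) did not pass. Both contrasts share the 9 h mice and so are not independent.

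In the other strains none of the 6 passed this test in edgeR, with 0.349% and 0.0776% of genes called in either direction in IL-1R1 gKO against 24 and 72 h, 0.195% and 0.551% in IL-1R1 eRestore, and 0.114% and 0.180% in IL-1R1 nRestore. The estimates ran from −0.98 to −0.01 in IL-1R1 gKO, from −0.33 to 0.33 in IL-1R1 eRestore and from −1.77 to 0.14 in IL-1R1 nRestore, and the smallest adjusted p was 0.113. The −1.77 was that of Fos against 24 h, where some CHI mice had no sham mice of their strain in their experiment. Unadjusted p-values under 0.05 numbered 2, 2 and 3 of 12 in these strains. Among all genes, against 24 and 72 h, they numbered 1471 and 1688 of 18052 in IL-1R1 gKO. The numbers were 1544 and 2577 of 17963 in IL-1R1 eRestore and 1472 and 1994 of 18346 in IL-1R1 nRestore.

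The levels of each surgery group are given over time, although the 9 h mice came from other experiments than the later mice. A higher sham level and a lower CHI level at 9 h therefore cannot be told apart. Averaged over the 4 strain means, Fos in sham mice had 863 normalized counts at 9 h, 453 at 24 h and 563 at 72 h, and in CHI mice 390.3, 420.2 and 563. In these averages sham mice at 9 h stood above sham mice at the later times and CHI mice did not, although single strains departed from this: in IL-1R1 eRestore, CHI mice averaged 554 at 9 h and 416 at 24 h, and in IL-1R1 nRestore, sham mice averaged 489 at 9 h and 482 at 72 h.

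**Figure D3:**
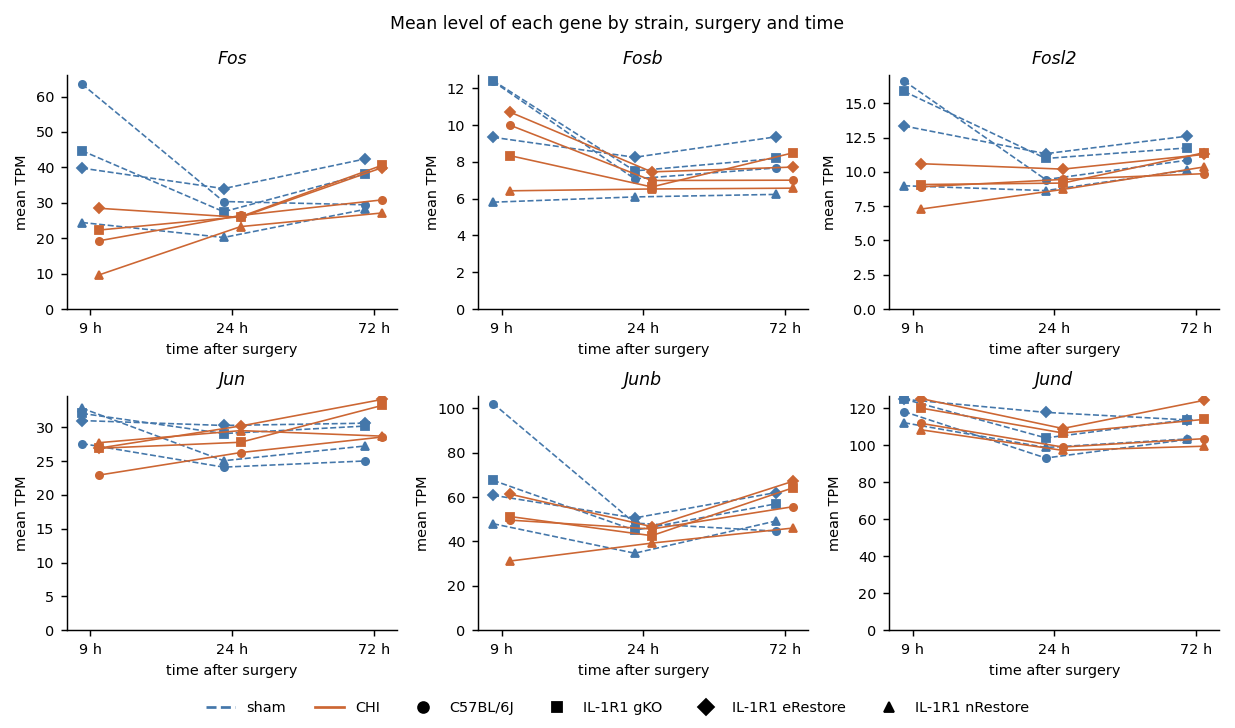
Mean TPM of the 6 genes at 9, 24 and 72 h (evenly spaced), with each point the mean of 1 strain, dashed lines for sham and solid lines for CHI. The mean over the 4 strains for Fos is 43.1 TPM in sham and 19.9 in CHI mice at 9 h, and 28.0 and 25.4 at 24 h.

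In sham mice over the 4 strains all 6 genes were higher at 9 h than at 24 h, where 21.6% of genes were called higher, and than at 72 h, where 21.1% were. The differences from 24 h were 0.96 for Fos, 0.59 for Fosb, 0.56 for Fosl2, 0.26 for Jun, 0.77 for Junb and 0.32 for Jund. Those from 72 h were 0.62 for Fos (adjusted p = 0.00458), 0.44 for Fosb, 0.39 for Fosl2, 0.19 for Jun, 0.49 for Junb and 0.25 for Jund. In CHI mice the genes split. Fosb (0.41), Junb (0.26) and Jund (0.27) were higher at 9 h than at 24 h, where 33.3% of genes were higher and 36.2% lower, and Fos (−0.09), Fosl2 (0.04) and Jun (−0.04) did not pass. Against 72 h, Fosb (0.30) and Jund (0.20) were higher and Fos (−0.51) and Jun (−0.19) lower at 9 h, where 33.6% of genes were higher and 35.9% lower, while Fosl2 (−0.12) and Junb (−0.14) did not pass. These comparisons run across experiments and a large share of all genes was called in them, so a call for 1 gene stands against a wide background, and the lower striatal signal at 9 h moved with it. Their fits had strain and sex as covariates but not age. In C57BL/6J, for example, sham mice were 4.4 to 4.8 months old at 9 h and 5.17 to 6.8 at 72 h.

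The response was compared between females and males at each time over C57BL/6J, IL-1R1 gKO and IL-1R1 eRestore. IL-1R1 nRestore was left out, since at each time it had a group with at most 1 mouse of a sex. None of the 18 tests passed in edgeR and 1 had an unadjusted p under 0.05, with estimates (female minus male) from −0.07 to 0.58 and a smallest adjusted p of 0.628. None of the genes tested was called at any of the 3 times (0% each, with 423, 644 and 1527 genes at an unadjusted p under 0.05). In C57BL/6J at 9 h, Fos averaged 1189 in 3 female sham and 432 in 7 female CHI mice, and 1472 in 3 male sham and 351 in 8 male CHI mice, so that CHI was lower in both sexes.

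Covariation among mice of 1 group differed between the pairs of genes. On log2 values with group means removed, Fos and Junb were the closest of the 15 pairs over 200 mice, with Pearson's r = 0.864 and Spearman's rho = 0.869. This r was 0.860 with experiment means removed as well and 0.854 without the 2 mice farthest from the median of Fos. Fosb and Fosl2 followed with r = 0.734 and rho = 0.732, then Fos and Fosb (r = 0.667, rho = 0.623), Fos and Fosl2 (r = 0.621, rho = 0.613) and Fosb and Junb (r = 0.616, rho = 0.564). Within experiments these 4 were 0.625, 0.502, 0.531 and 0.509. Each of the 5 pairs reached the smallest p that 100000 permutations within groups can give, 1e-05 (adjusted over the 15 pairs, 1.88e-05 for r and 2.14e-05 for rho). Jun was weakly tied to the rest, its r with the other 5 lying between 0.140 and 0.290, and between 0.0229 and 0.149 within experiments, and the pair of Jun and Jund did not pass (adjusted p = 0.0701, permutation test), nor did Fosl2 and Jun by rho (0.122, adjusted p = 0.107). Fos and Jund had r = 0.251, and 0.0848 within experiments.

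**Figure D4:**
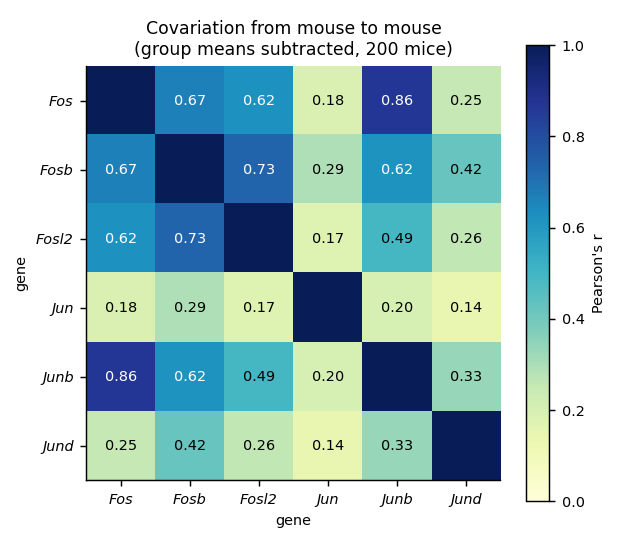
Pearson's r between each pair of the 6 genes over 200 mice (log2 normalized counts with the mean of each group removed), from light (0) to dark (1). Fos and Junb show the tightest relation (r = 0.864), and the 5 pairs with Jun lie between 0.140 and 0.290.

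Over the 24 group means, the genes most like each member were ranked by Pearson's correlation among 17787 genes, as a description. The points share experiments and sequencing, and the ranking says nothing of shared control. Nearest to Fos were Egr1 (r = 0.942), Egr4 (0.938) and Egr2 (0.936), zinc finger immediate early genes. Nearest to Fosl2 were Egr4 (0.941), Nr4a3 (0.931), a nuclear receptor of the immediate early class, and Fos itself (0.914). Junb lay closest to Dusp1 (0.979), a phosphatase that inactivates MAP kinases, Ier2 (0.946) and Btg2 (0.891). Fosb lay closest to Irf2bp2 (0.946), Midn (0.943) and Ntrk2 (0.925), the receptor of brain-derived neurotrophic factor. Jund had Tbc1d22b (0.955), Zdhhc8 (0.953) and Dusp8 (0.952), and Jun, with weaker neighbours, Zfp575 (0.839) and Lrrc3 (0.811).

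Around the 6 genes, 4 lists of the pathway were followed in the fit over the 4 strains at 9 h, where 11.9% of all genes were lower, 12.0% higher and the median of all genes was −0.00. Among other basic leucine zipper genes, 12 of 14 were tested (Batf and Batf2 were not), 3 were lower and 4 higher with a median of 0.01. The small Maf protein gene Maff was higher, with a median of 48.9 normalized counts (16.0 to 148.5) in 46 CHI and 23.4 (7.17 to 46.5) in 22 sham mice (0.90 ± 0.15, adjusted p = 2.10e-06). Fosl1, the Fos family gene outside the 6 that encodes Fra-1, was also higher (0.87 ± 0.30, adjusted p = 0.0278), at a low median of 29.5 against 12.6 with overlapping groups. Its direction was thus opposite to that of Fos, Fosb and Fosl2. Mafk (0.28) was also higher, and Mafg (−0.23), Maf (−0.16) and Atf4 (−0.15) the 3 lower. Atf3, a stress-responsive partner of Jun, had medians of 15.1 and 11.0 and did not pass (0.38 ± 0.19, adjusted p = 0.146).

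Of 22 kinases and transcription factors upstream of the genes, 1 was lower and 6 were higher, with a median of 0.03. Those higher were Stat3 (0.26), Elk1 (0.25), a partner of serum response factor, Mrtfa (0.23), Mrtfb (0.20), Rps6ka5 (0.14) and Crtc1 (0.09), and Camk4 (−0.22), a calcium-dependent kinase that phosphorylates CREB, was lower. Of 8 negative regulators, 4 were lower and 1 higher, with a median of −0.12. Sik1, a salt-inducible kinase that is itself a CREB target, had a median of 225 normalized counts in CHI and 312 in sham mice (−0.62 ± 0.10, adjusted p = 2.41e-06). It was followed by Nfil3 (−0.29), Crem (−0.21), which encodes repressors of CRE-driven transcription, and Cop1 (−0.10), a ubiquitin ligase that targets Jun. Zfp36, which encodes an RNA decay factor, was higher (0.38).

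Of 18 genes known as AP-1 targets, 8 were higher and 3 lower, with a median of 0.16. Timp1, an inhibitor of matrix metalloproteinases, was at 10.5 (3.14 to 42.6) in CHI and 3.85 (0 to 16.4) in sham mice (1.53 ± 0.27, adjusted p = 1.13e-05). Mmp3, which encodes stromelysin, was at 0 in 20 of 22 sham mice and in 5 of 46 CHI mice, whose median was 6.03 (adjusted p = 6.18e-10). Plaur (0.96), Hmox1 (0.81), Cd44 (0.71), Vim (0.52), Plau (0.31) and Ccnd1 (0.23) were also higher. The lower ones were Penk (−0.54), which encodes the enkephalin precursor and is abundant in striatal neurons, Gria2 (−0.26) and Scg2 (−0.13). More of these 18 genes were higher than lower, where 12.0% of all genes were higher and 11.9% lower. The list was chosen with earlier results of these data known, and any part of AP-1 in these differences was not tested.

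**Figure D5:**
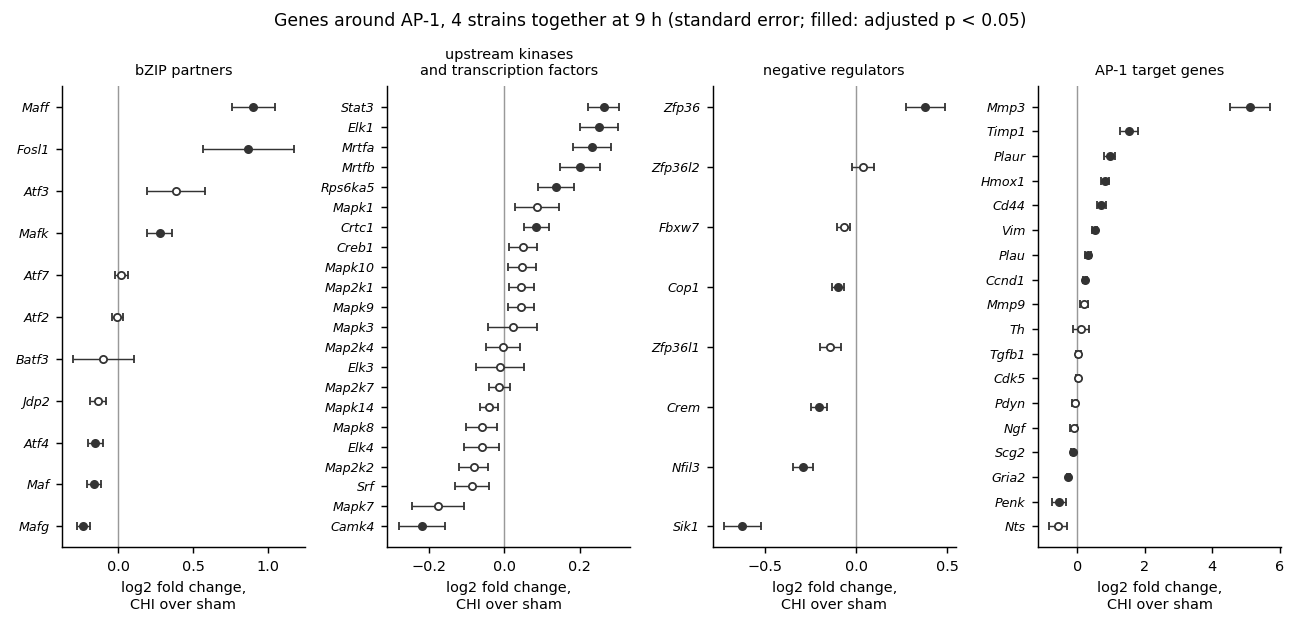
Log2 fold change of CHI over sham (± SE) at 9 h over the 4 strains for tested genes of the 4 pathway lists, each list on its own scale, with filled points at an adjusted p under 0.05. Maff (0.90) and Fosl1 (0.87) lie highest among the leucine zipper genes (bZIP partners), Sik1 (−0.62) lowest among the negative regulators, and Mmp3 and Timp1 (1.53) highest among the target genes.

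At 24 h, where 1.48% of all genes were called, 3 genes of these lists were, Atf4 lower (−0.15) and Timp1 (1.77) and Vim (0.37) higher. At 72 h, where 0.706% of all genes were called, 5 were, all higher: Atf3 (1.10), Timp1 (1.52), Vim (0.37), Cd44 (0.37) and Tgfb1 (0.29).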

How the data were processed

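Per the study's methods, the authors sequenced poly(A) RNA of PBS-perfused mouse brain and processed it with nf-core/rnaseq (STAR, Salmon) against GRCm39. They deposited estimated counts per gene and, in a second table, TPM values, for 200 mice. Per the labels STAR, Salmon and GRCm39 served for every mouse, whereas perfusion, poly(A) selection and the sham procedure are described for C57BL/6J mice only. The annotation release and strandedness are not given in the sources used here.

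The estimated counts were rounded to whole numbers. A gene was kept if it reached 10 counts in a number of mice equal to the smallest group. Tests used edgeR 4.0.16 (R 4.3.3) quasi-likelihood fits with TMM scaling, Benjamini-Hochberg adjustment over all genes and a threshold of 0.05. Covariates were sex and age, and strain where strains were joined. The fits of 9 h against later times within 1 surgery had strain and sex but not age. SE is the absolute log2 fold change over the square root of F. Normalized counts use TMM factors over all 200 mice and 20111 genes. Correlations used log2(normalized count + 1) with permutations within groups. The deposited TPM values served for levels per length only. DESeq2 1.42.0, with and without gene-length offsets, other filters, covariates, scaling, subsets and leaving out mice were alternatives.

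Groups came from the labels, each sample being 1 mouse, so that p-values measure the spread between mice. No 2 libraries of a group agreed within sampling noise (879 pairs). The fitting code was tested on simulated counts. Genes named are the 6 members, 4 pathway lists, cell markers, Il1r1 and the 3 genes most like each member over the group means; 1 gene of a list and 1 of the most alike are not reported here. Members and lists were chosen with earlier results of these data known, and 2 alternatives (choroid plexus markers, striatal markers) were added after seeing the data. Promoter windows and positions come from the GRCm39 annotation.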

Additional observations from a re-analysis of the deposited data

Results flagged for a closer look

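In 4 of the 6 genes the C57BL/6J response differed between times by its own test (edgeR quasi-likelihood, adjusted over all genes). The CHI-minus-sham difference at 9 h minus that at 24 h was −1.64 for Fos, −0.86 for Fosl2, −0.98 for Junb and −0.35 for Jun. Against 72 h it was −2.001, −0.76, −1.50 and −0.46 for the same genes in that order. Time point and experiment cannot be told apart in these values.

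In 3 of 96 gene and group combinations of 4 to 10 mice, 1 mouse stood far above the others by Dixon's criterion, which chance alone gives in about 1 in 20. Jun in C57BL/6J sham mice at 72 h reached 1140.0 normalized counts where the nearest mouse had 920.1. Jun in IL-1R1 eRestore sham mice at 72 h reached 1363 with the nearest at 1090.0. Jund in IL-1R1 nRestore CHI mice at 9 h reached 2220 with the nearest at 2004.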

How the results depend on the processing

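Of the counts of members called, 277 of 295 values under alternatives stayed within 1.5 times the main count. This total includes comparisons in which a count of 0 stayed 0, so it does not show how stable the calls were. In C57BL/6J at 9 h the count of 5 lower genes became 1 within experiment eIL-1-80 alone (5 CHI and 2 sham mice) and lay between 3 and 5 when single sham mice were left out (CHI mice were not left out in any comparison). Jun was at 0.0148 within eIL-1-80. In IL-1R1 gKO at 9 h the count of 0 became 1 with DESeq2, 2 with DESeq2 and gene-length offsets, 2 with 1 fit of the strain, 3 within eIL-1-80 (3 CHI and 2 sham mice, 1 residual degree of freedom), 1 with the striatal score added, and 0 to 1 with single sham mice left out. In IL-1R1 eRestore at 9 h it became 1 with experiment in place of age, 1 with 1 fit of the strain and 0 to 1 with single sham mice left out. In IL-1R1 nRestore at 9 h it became 1 with no filter on low counts and 1 with 1 fit of the strain. In IL-1R1 eRestore at 72 h the count of higher genes became 3 within eIL-1-56 (3 CHI and 2 sham mice, 1 residual degree of freedom), where Fos was at 0.68 and Fosl2 at 0.64 after adjustment for sex and age, while the log2 ratios of the group means there were 0.10 and −0.18. Over the strains at 9 h the count of 5 became 3 without C57BL/6J, and for IL-1R1 eRestore minus C57BL/6J it became 2 with 2 strains only. Fosb in C57BL/6J at 9 h was not called with gene-length offsets (−0.29, adjusted p = 0.153, DESeq2) or with no filter (adjusted p = 0.0527). Within 1 experiment fewer mice were tested, and for the other changes the cause was not tested. No paired analysis was possible because the labels give no replicate number shared between groups. The lowest estimated counts per mouse were 87.0 for Fos and 110.001 for Fosb, and the share of counting error in the spread between mice was not tested.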
